A study of Homo sapiens with 12 samples.

Results

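The genes described are 10 that mark the surface, the junctions or the secreted products of endothelial cells: PECAM1, PLVAP, CLDN5, ESAM, EMCN, ROBO4, EGFL7, VWF, NOS3 and ICAM2. They were chosen by name, with earlier results of these data known, so counts over them are descriptive. All 10 were found among the 56593 distinct gene symbols of the expression table. RNA-seq had been done on 4 populations with 3 libraries each: undifferentiated H1 cells, APLNR+ mesoderm cells of day 2, CD31+CD34+ hemogenic endothelial progenitors (HEPs) of day 5 and CD43+ hematopoietic progenitor cells (HPCs) of day 8. All come from H1, an established human embryonic stem cell line with no genetic change named for these samples, so the populations are cells of 1 line. Differentiation took place in Custom mTeSR1 medium with activin A and BMP4 at first and VEGF and bFGF afterwards. The populations differ in sorted marker and in day at once, and these cannot be told apart. CD31 is the product of PECAM1, so the high level of PECAM1 in the CD31+CD34+ libraries follows from how those cells were defined and is given as a description.

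Endothelial cells line blood vessels and are held together by adherens and tight junctions, to which PECAM1, ESAM and CLDN5 contribute as adhesion molecules. Their surface also carries glycoproteins and receptors that control permeability, sprouting and the docking of leukocytes, and they secrete clotting and vessel-guiding proteins and make nitric oxide. Hemogenic endothelium is an endothelial population that gives rise to blood progenitors by the endothelial-to-hematopoietic transition, in which cells lose their junctions and leave the endothelial layer. Several endothelial genes, among them PECAM1, VWF, ICAM2 and ESAM, are also known in blood progenitors or in megakaryocytes and platelets.

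Values are given as FPKM, a measure that divides the fragments of a gene by transcript length and library size. Absolute depth is unknown from FPKM, but the spacing of the lowest values put replicate 1 as the shallowest library of each population, at 0.553 to 0.746 times the depth of CD43+ replicate 3, with a highest value of 1.27 in the other libraries. Summed FPKM ranged from 568036 to 1576040 per library. The labels do not say whether libraries of a population came from separate cultures, so p-values measure the spread between these libraries, which may be technical. These are bulk libraries, in which fewer cells that express a gene and less RNA of it per cell cannot be told apart. The populations carried their defining markers: SPN, which encodes CD43, averaged 3.70 FPKM in CD31+CD34+ and 75.5 FPKM in CD43+ cells, while PTPRC, which encodes the pan-leukocyte protein CD45, reached a mean of only 0.197 FPKM in CD43+ cells. A change was called at an adjusted p under 0.05 with at least a 2-fold change on the log2(FPKM + 1) scale, which understates changes of low genes.

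Since most of the genes rose at the same step, the sequence just before their start sites was examined for PLVAP, EMCN, ROBO4, EGFL7 and NOS3 in a RefSeq promoter table (GRCh38.p14). Promoters of PECAM1, CLDN5, ESAM, VWF and ICAM2 were not analysed here. The 250 bases before the start are shown 5′ to 3′ for the 3 genes that fell at the step to CD43+ cells and for EMCN, which rose there. Capitals mark matches on either strand to core motifs of 4 families of transcription factors active in endothelial and blood cells. The motif of ETS factors was searched as CNGGAAG, in which N is any base. The GATA motif was written GATAAG. For SOX factors the letters used were ACAANG. The RUNX motif was TGTGGT.

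NOS3, chr7:150993532-150993781, plus strand: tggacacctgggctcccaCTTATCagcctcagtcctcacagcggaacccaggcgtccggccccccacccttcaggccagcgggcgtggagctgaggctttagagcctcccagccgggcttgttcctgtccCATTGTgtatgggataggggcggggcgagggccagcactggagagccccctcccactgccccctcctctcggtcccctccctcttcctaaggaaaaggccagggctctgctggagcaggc
EGFL7, chr9:136658606-136658855, plus strand: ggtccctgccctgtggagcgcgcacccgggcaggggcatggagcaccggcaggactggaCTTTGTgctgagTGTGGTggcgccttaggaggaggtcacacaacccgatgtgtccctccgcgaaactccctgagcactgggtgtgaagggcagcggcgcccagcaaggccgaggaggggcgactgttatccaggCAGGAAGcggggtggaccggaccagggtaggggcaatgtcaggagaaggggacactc
PLVAP, chr19:17377343-17377592, minus strand: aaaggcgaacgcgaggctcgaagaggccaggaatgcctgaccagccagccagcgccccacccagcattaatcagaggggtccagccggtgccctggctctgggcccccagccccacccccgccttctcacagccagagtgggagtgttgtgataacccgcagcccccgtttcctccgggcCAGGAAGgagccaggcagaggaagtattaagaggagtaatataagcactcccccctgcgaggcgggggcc
EMCN, chr4:100518023-100518272, minus strand: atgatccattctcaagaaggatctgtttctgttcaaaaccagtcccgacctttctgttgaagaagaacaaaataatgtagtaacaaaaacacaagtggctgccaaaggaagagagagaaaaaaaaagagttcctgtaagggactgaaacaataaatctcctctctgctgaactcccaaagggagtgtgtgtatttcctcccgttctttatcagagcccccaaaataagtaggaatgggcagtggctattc

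The window of PLVAP held the ETS motif at -70 from the start (first base of the match, with the base before the start at -1), and that of EGFL7 held it at -57, with a SOX match at -191 and a RUNX match at -179. The second start of EGFL7 also had the ETS motif, at -82, and so did the start of ROBO4, at -90. NOS3 had a GATA match at -232 and a SOX match at -120 and no ETS match at the start shown, and its second start, whose window overlaps the first, had a SOX match at -142 and none of the other 3 motifs. EMCN had none of the 4. Over 35116 windows of this length, 28.3% held the ETS motif, 5.65% the GATA motif, 30.9% the SOX motif and 10.98% the RUNX motif. Single ETS and SOX matches are thus common, and GATA and RUNX matches less so. All matches are given as descriptions of the sequence.

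Expression of 8 of the 10 genes was below 1 FPKM in all 6 H1 and APLNR+ libraries, the highest of these values being 0.826 FPKM for ICAM2. EGFL7 and NOS3 were the 2 others, at 11.5 to 28.2 FPKM and 1.24 to 2.07 FPKM over the same 6 libraries. At the step from H1 to APLNR+ cells, 0 of the 10 genes were called by limma, against 15.9% of the 14840 genes tested, and 3 had an unadjusted p under 0.05, as had 62.2% of all tested genes. Those 3, VWF, ICAM2 and EGFL7, changed by less than 2-fold. VWF was at 0.115, 0.105 and 0.112 FPKM in H1 and at 0.700, 0.611 and 0.650 FPKM in APLNR+ cells, without overlap (log2 change 0.57, adjusted p 0.000186). ICAM2 moved the other way, from 0.826, 0.421 and 0.486 FPKM to 0.196, 0.188 and 0.168 FPKM (log2 change -0.41, adjusted p 0.00705), so that H1 was the higher group. EGFL7 was at 28.2, 21.2 and 18.1 FPKM in H1 and at 17.5, 14.0 and 11.5 FPKM in APLNR+ cells, again without overlap (log2 change -0.61, adjusted p 0.0124). All 3 were far under the levels reached later.

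At the step from APLNR+ to CD31+CD34+ cells, 9 of the 10 genes rose and 1, EMCN, was not called, whereas 12.5% of all tested genes rose. In all 10 genes the 3 CD31+CD34+ libraries lay above the 3 APLNR+ libraries, as they did for 36.9% of all tested genes. The median log2 change was 4.75 over the 10 genes and -0.01 over all tested genes. Of the 10 genes, 8 passed the expression filter only through their CD31+CD34+ or CD43+ libraries, so a rise in them is partly built into the filter and these counts are descriptive. Against APLNR+ cells, all 10 genes were also raised in CD43+ cells, where 14.1% of all tested genes were, by log2 changes from 1.35 for ROBO4 to 6.82 for ICAM2. Both steps are measured against the same APLNR+ libraries. In the plot of the libraries, every gene is near the floor of its panel in H1 and APLNR+ cells, and the genes part at the last step.

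**Figure D1:**
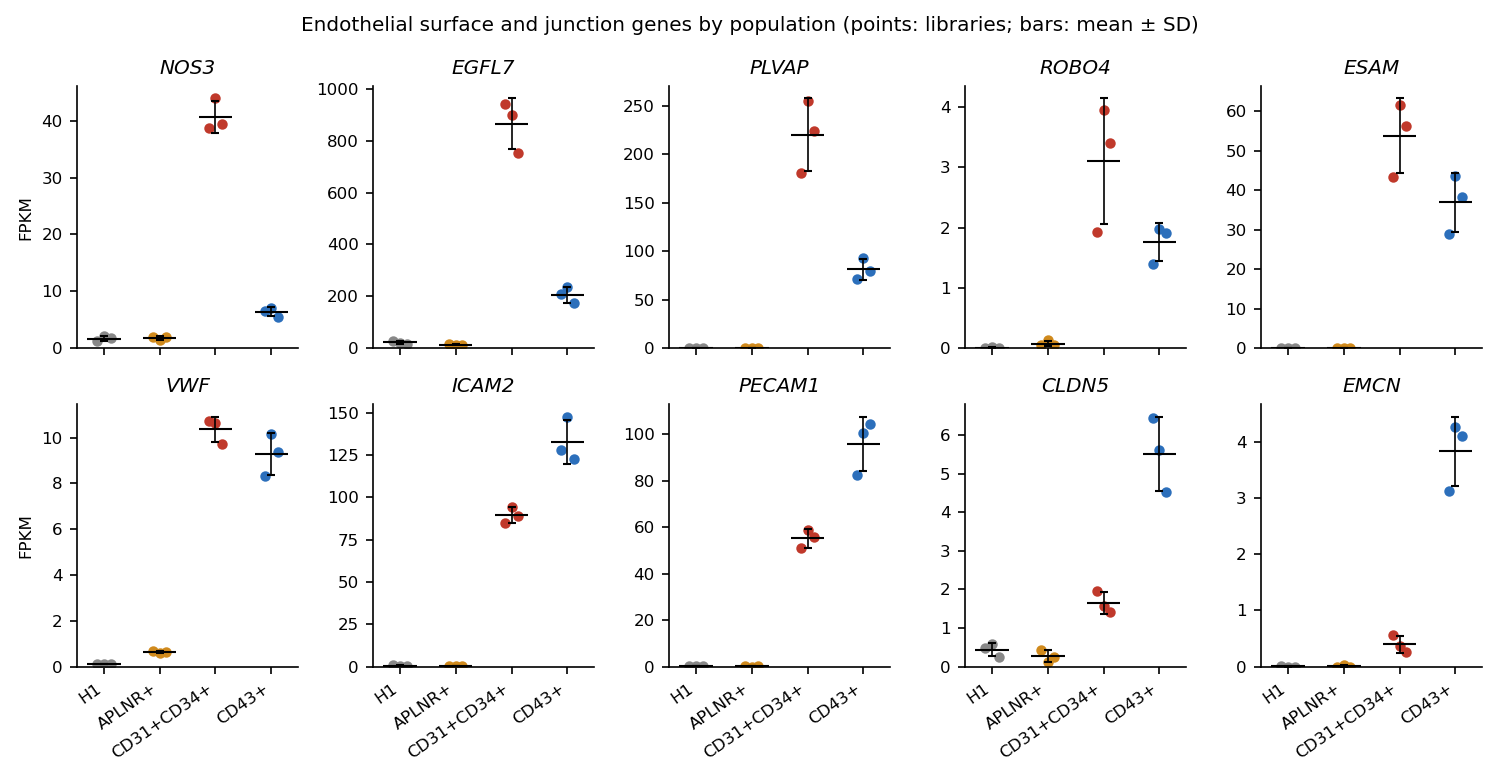
Expression (FPKM, linear axes that start at 0 and differ between panels) of the 10 endothelial genes in H1, APLNR+, CD31+CD34+ and CD43+ cells. Points are the 3 libraries of each population and bars the mean ± SD; panels run from NOS3, which fell to 6.41 FPKM in CD43+ cells, to EMCN, which rose there to 3.84 FPKM.

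At the step from CD31+CD34+ to CD43+ cells the 10 genes went different ways. NOS3, EGFL7 and PLVAP fell, CLDN5 and EMCN rose, and 5 were not called, which makes 5 of 10 called against 14.4% of all tested genes. The raised and lowered shares over all tested genes were 5.58% and 8.79%. Of the 5 not called, PECAM1 and ICAM2 were higher and ESAM and ROBO4 lower with an adjusted p under 0.05 and a change under 2-fold, and VWF had an adjusted p of 0.194. An adjusted p under 0.05 with a change under 2-fold was found for 39.3% of all tested genes. The libraries of the 2 populations did not overlap for 7 of the 10 genes (4 higher and 3 lower in CD43+ cells), while 58.0% of all tested genes showed no overlap (28.0% higher and 30.0% lower). EMCN passed the filter only through its CD43+ libraries, so its rise at this step is partly built into the filter.

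**Figure D2:**
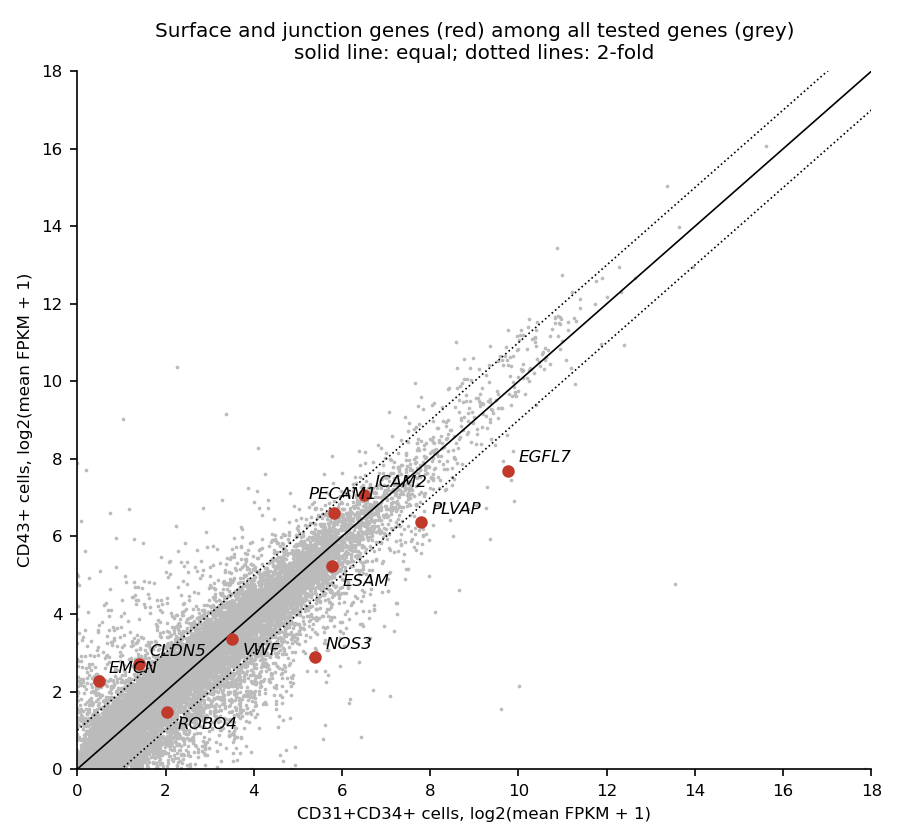
Mean expression of each tested gene in CD31+CD34+ cells (x axis) and CD43+ cells (y axis), both as log2(mean FPKM + 1), with the 10 endothelial genes in red and all 14840 tested genes in grey. NOS3, EGFL7 and PLVAP lie below the lower dotted 2-fold line, EMCN and CLDN5 above the upper one, and the other 5 between them.

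Among the junction genes, PECAM1 encodes the adhesion molecule CD31, which endothelial cells, platelets and leukocytes carry. It was between 0.00147 and 0.248 FPKM in the H1 and APLNR+ libraries, at 50.9, 59.0 and 55.6 FPKM in CD31+CD34+ cells and at 82.6, 101 and 104 FPKM in CD43+ cells. Every CD43+ library was thus above every CD31+CD34+ library, although CD43+ cells were defined by another marker. The log2 change from CD31+CD34+ to CD43+ cells was 0.78 ± 0.12 (SE, adjusted p 0.000125, 95% interval 0.53 to 1.04), so PECAM1 passed the p threshold but not the 2-fold limit.

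ESAM, an adhesion molecule of endothelial tight junctions and platelets, was at 0.174, 0.136 and 0.0784 FPKM in APLNR+ cells and rose to 43.3, 61.7 and 56.3 FPKM in CD31+CD34+ cells (log2 change 5.59 ± 0.15, SE, adjusted p 4.96e-11). CD43+ libraries held 28.96, 43.6 and 38.4 FPKM. The groups overlapped, since the highest CD43+ library lay just above the lowest CD31+CD34+ library, and replicate 1 was the lowest of both. Between libraries of the same number, CD43+ was lower in all 3. The log2 change was -0.53 ± 0.15 (SE, adjusted p 0.0119), under the 2-fold limit, and without CD31+CD34+ replicate 2 the adjusted p was 0.0548.

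CLDN5, the main claudin of endothelial tight junctions, was low until the last stage. Its libraries were at 0.441, 0.121 and 0.258 FPKM in APLNR+ cells, 1.95, 1.56 and 1.41 FPKM in CD31+CD34+ cells and 6.44, 5.61 and 4.53 FPKM in CD43+ cells. The 3 populations did not overlap, and the level rose at both steps, with log2 changes of 1.06 ± 0.14 (adjusted p 2.73e-05) and 1.30 ± 0.14 (SE, adjusted p 9.55e-06). The first rise stood at the 2-fold limit: without APLNR+ replicate 2 or without CD31+CD34+ replicate 1 the log2 change was 0.97 and the call was lost.

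Of the surface glycoproteins and receptors, PLVAP forms the diaphragms of caveolae and of the pores of fenestrated endothelium. Libraries were at 181, 255 and 224 FPKM in CD31+CD34+ cells and at 71.7, 93.2 and 80.2 FPKM in CD43+ cells. All CD43+ libraries were below all CD31+CD34+ libraries, and PLVAP fell by 1.41 on the log2 scale (SE 0.15, adjusted p 1.01e-05). The level left in CD43+ cells was still far above APLNR+ cells, where the 3 libraries lay between 0 and 0.271 FPKM (log2 change 6.24).

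EMCN encodes endomucin, a mucin-like sialoglycoprotein of capillary and venous endothelium that is also found on hematopoietic stem cells. It was listed at 0 in 4 of the 6 H1 and APLNR+ libraries and was at 0.564, 0.360 and 0.263 FPKM in CD31+CD34+ cells. In CD43+ cells it stood at 3.14, 4.27 and 4.11 FPKM, above every earlier library. This was the largest relative rise of the 10 genes at this step (log2 change 1.79 ± 0.11, SE, adjusted p 4.48e-08). Since EMCN was tested only through its CD43+ libraries, the rise is partly built into the filter. At the preceding step its log2 change was 0.46 (adjusted p 0.00188), which became 2.13 and was called with a pseudocount of 0.1 in place of 1. Noncoding genes are annotated within introns of EMCN on the same strand, and EMCN transcripts shared no 50-base stretch with any other gene. Reads of unspliced EMCN RNA there cannot be told apart from reads of these noncoding genes. LINC01217 averaged 0.0684 FPKM in CD31+CD34+ and 0.846 FPKM in CD43+ cells, and LINC01218 averaged 0.0282 and 1.86 FPKM.

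ROBO4, a receptor of the roundabout family that stabilizes vessels, stayed low, at 1.93, 3.96 and 3.40 FPKM in CD31+CD34+ cells and 1.39, 1.98 and 1.91 FPKM in CD43+ cells. The groups overlapped through CD31+CD34+ replicate 1, the shallowest library, which lay within the range of the CD43+ libraries. The rise from APLNR+ cells (0.0464 to 0.131 FPKM) was called at a log2 change of 1.89 ± 0.16 (SE, adjusted p 5.85e-07), and the later log2 change of -0.54 ± 0.16 (adjusted p 0.0137) was under the 2-fold limit. Without CD31+CD34+ replicate 2 or 3 or CD43+ replicate 1, its adjusted p was 0.0510 to 0.0612.

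ICAM2 encodes a constitutive endothelial ligand of leukocyte integrins that platelets also carry. On the log2(FPKM + 1) scale, ICAM2 had the second largest rise of the 10 genes at the endothelial step, after PLVAP. Its APLNR+ libraries lay between 0.168 and 0.196 FPKM and its CD31+CD34+ libraries at 84.9, 94.5 and 89.3 FPKM (log2 change 6.26 ± 0.11, SE, adjusted p 2.86e-12). In CD43+ cells it was at 128, 148 and 123 FPKM, above all CD31+CD34+ libraries. This further difference had a log2 value of 0.56 ± 0.11 (SE, adjusted p 0.000974), under the 2-fold limit. PRR29, which overlaps ICAM2 on the opposite strand, reached at most 2.93 FPKM in any library.

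The third group acts outside the membrane or inside the cell. EGFL7, a secreted protein that guides vessel formation, was the most abundant of the 10 genes on the FPKM scale in each of CD31+CD34+ and CD43+ cells, and it was already present in APLNR+ cells (17.5, 14.0 and 11.5 FPKM). CD31+CD34+ libraries held 942, 898 and 754 FPKM and CD43+ libraries 210, 235 and 173 FPKM. There was no overlap, and EGFL7 fell by 2.07 on the log2 scale (SE 0.18, adjusted p 1.48e-06). MIR126, the microRNA gene within EGFL7, was listed at 0 in all 12 libraries. The mature microRNA is too short for such libraries to capture, so its level was not measured. AGPAT2, the neighbouring gene, averaged 24.0 and 21.2 FPKM in CD31+CD34+ and CD43+ cells.

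VWF, the clotting protein that endothelial cells and megakaryocytes store, was the gene whose level differed least at the last step. Its CD31+CD34+ libraries were at 10.7, 10.6 and 9.74 FPKM and its CD43+ libraries at 8.33, 10.2 and 9.39 FPKM. The groups overlapped, and the log2 change was -0.15 ± 0.09 (SE, adjusted p 0.194, 95% interval -0.34 to 0.05). The interval lies within 2-fold and includes 0. VWFP1, a pseudogene that shares 7.23% of the 50-base stretches of VWF transcripts, stayed at or under 0.0690 FPKM, and the other genes described shared at most 0.360% with any gene.

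NOS3, the endothelial nitric oxide synthase, kept the smallest part of its level. It was at 1.93, 1.41 and 1.96 FPKM in APLNR+ cells, 38.7, 43.9 and 39.3 FPKM in CD31+CD34+ cells and 6.52, 7.12 and 5.57 FPKM in CD43+ cells. No CD43+ library came near a CD31+CD34+ library, and NOS3 fell by 2.50 on the log2 scale (SE 0.14, adjusted p 2.22e-08). The CD43+ level stayed above the APLNR+ level in all libraries (log2 change 1.42). ATG9B, which overlaps NOS3 on the opposite strand, reached at most 1.13 FPKM.

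The share of the CD31+CD34+ level kept in CD43+ cells, as the ratio of the mean FPKM values, put the genes in order. NOS3 kept 15.8% ± 1.28 (SE, n = 3 libraries per population), EGFL7 23.8% ± 2.60 and PLVAP 37.1% ± 4.63. These 3 kept less than 50%, and the ratios of single libraries never passed 51.6%. ROBO4 at 56.8% ± 12.6, ESAM at 68.8% ± 10.6 and VWF at 89.6% ± 5.85 lay between 50% and 100%. Each had at least 1 of its 9 library pairs above 100%, but always between libraries of different number. Same-numbered libraries, which deviated together in these populations, gave ratios of 50.0% to 72.0% for ROBO4, 66.9% to 70.7% for ESAM and 77.6% to 96.4% for VWF. That pairing was read from the data and is not given by the labels. Replicate 1 was the shallowest library of both populations, and whether depth made same-numbered libraries deviate together was not tested. The standard errors treat the libraries as unpaired. The share of ROBO4 was 47.8% without CD31+CD34+ replicate 1 and at most 66.0% with another library left out, so its place above 50% rests on that library. ICAM2 at 148% ± 9.69, PECAM1 at 174% ± 14.3, CLDN5 at 336% ± 47.4 and EMCN at 971% ± 235 exceeded 100% in every library pair. EMCN had the widest range, from 556% to 1626%, since it divides by the lowest level, 0.396 FPKM.

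**Figure D3:**
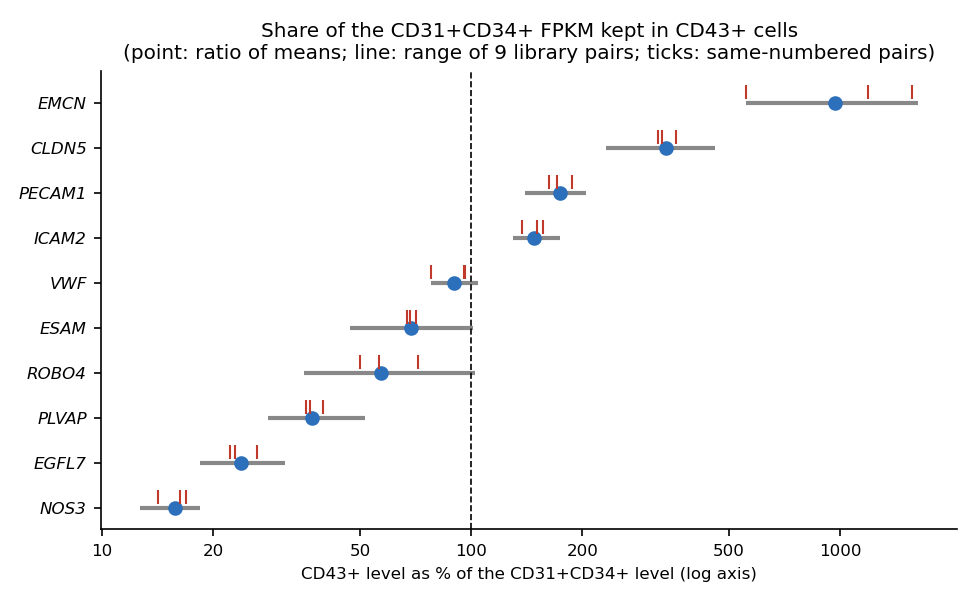
Share of the CD31+CD34+ FPKM level kept in CD43+ cells for each of the 10 genes, in percent on a log axis, with the point at the ratio of the means of 3 libraries, the line over the 9 single library pairs, ticks at the 3 same-numbered pairs and a dashed line at 100%. The genes run from NOS3 at 15.8% to EMCN at 971%, and the lines of ROBO4, ESAM and VWF cross 100% while their ticks lie below it.

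Neighbours in this order were compared by their difference in log2(FPKM + 0.1) within each library, a measure that library scaling barely touches. The 3 values in CD43+ cells lay apart from the 3 values in CD31+CD34+ cells for 7 of the 9 neighbouring pairs. The order was ranked from these same libraries, which largely set the direction of each difference. The count is therefore descriptive, and it was not made for other pairs of genes. ROBO4 and ESAM, and ESAM and VWF, were not separated in this way. No p is attached, since 3 against 3 libraries allow no exact permutation p under 0.1. The median share was 79.2% over the 10 genes and 68.8% over the 9 of at least 1 FPKM in CD31+CD34+ cells, which leaves out EMCN. Over the 12463 tested genes of at least 1 FPKM in CD31+CD34+ cells it was 97.2%, with 15.6% of them under 50% and 47.4% at 100% or more.

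The order of the levels changed with the shares. In CD31+CD34+ cells it ran from EGFL7 (865 ± 98.2 FPKM, SD, n = 3) through PLVAP (220 ± 37.6), ICAM2 (89.6 ± 4.84), PECAM1 (55.2 ± 4.10), ESAM (53.8 ± 9.49), NOS3 (40.7 ± 2.86), VWF (10.4 ± 0.548), ROBO4 (3.10 ± 1.04) and CLDN5 (1.64 ± 0.281) to EMCN (0.396 ± 0.154). Libraries of PECAM1 and ESAM, ESAM and NOS3, and ROBO4 and CLDN5 overlapped in this order. In CD43+ cells ICAM2 (133 ± 13.2 FPKM) and PECAM1 (95.9 ± 11.7) stood next to EGFL7 (206 ± 31.2), ahead of PLVAP (81.7 ± 10.8). NOS3 (6.41 ± 0.781) came after VWF (9.30 ± 0.930), and ROBO4 (1.76 ± 0.319) was last. PECAM1 and PLVAP, and NOS3 and CLDN5, overlapped there.

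Markers of several cell types moved at the step from CD31+CD34+ to CD43+ cells, where 5.58% of all tested genes rose and 8.79% fell. Some blood markers, such as PPBP and TUBB1, were tested only through their CD43+ libraries. A rise in those markers is partly built into the filter, and the counts are descriptive. Those of endothelium (CDH5, KDR, TEK, TIE1 and CD34) summed to 482 to 639 FPKM in CD31+CD34+ and 242 to 310 FPKM in CD43+ libraries, 4 of the 5 fell, and TIE1 was not called (107 against 95.6 FPKM). Megakaryocyte and platelet markers summed to 15.0 to 22.0 FPKM and 747 to 813 FPKM, and 10 of the 11 tested rose, among them ITGA2B, the platelet integrin CD41 (9.39 to 575 FPKM), ITGB3, its partner (0.674 to 96.1 FPKM), and PF4 (1.42 to 59.7 FPKM). GP6, the platelet collagen receptor, was near 0 in both populations (0.0845 and 0.0920 FPKM). Erythroid markers summed to 24.1 to 26.5 FPKM and 1730 to 2218 FPKM in the 2 populations, and all 6 rose. Myeloid markers summed to 1.45 to 2.35 FPKM and 30.0 to 33.1 FPKM, and all 3 tested rose, with ELANE listed at 0 in all 12 libraries and MPO near 0. Blood progenitor markers summed to 43.7 to 59.8 FPKM and 740 to 821 FPKM, and all 5 tested rose. ITGA2B is in this list and in the megakaryocyte list and made up most of both CD43+ sums, so these sums are not separate.

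The summed markers of 3 other cell types were lower in CD43+ than in CD31+CD34+ libraries. Smooth muscle and pericyte markers summed to 531 to 573 FPKM there and to 70.9 to 94.6 FPKM in CD43+ libraries, mainly TAGLN (274 and 15.7 FPKM) and RGS5 (250 and 30.8 FPKM), while MYH11 was near 0 in both. Of the 5 tested, 3 fell and 1 rose, ACTA2, the smooth muscle actin (13.3 to 34.8 FPKM). Pluripotency markers summed to 314 to 386 FPKM and 147 to 171 FPKM. Mesoderm markers summed to 388 to 437 FPKM and 22.8 to 27.1 FPKM, nearly all of it APLNR (403 and 23.7 FPKM). In CD31+CD34+ cells EOMES averaged 4.14 FPKM, and MESP1, T and MIXL1 averaged 1.06 to 1.10 FPKM. In each of these lists, 2 of the 5 tested fell and 0 rose. The part of these cell types in the falls of NOS3, EGFL7 and PLVAP and in the levels of PECAM1, ICAM2, VWF and ESAM in CD43+ cells was not tested.

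Other genes of the same roles were taken from lists written with earlier results of these data known, so their counts are descriptive. Their counts stand beside 12.5% raised and 17.1% lowered of all tested genes at the step to CD31+CD34+ cells, and then 5.58% and 8.79% on the way to CD43+ cells. Of 28 tested junction genes, 9 rose and 4 fell at the step to CD31+CD34+ cells, and 1 rose and 9 fell at the step to CD43+ cells, with a median share kept of 54.3% over the 25 of at least 1 FPKM in CD31+CD34+ cells. CTNNB1, the beta-catenin of adherens junctions, averaged 220 and 141 FPKM (log2 change -0.63, adjusted p 0.00121, under 2-fold), and CTNNA1, its alpha-catenin partner, 165 and 83.1 FPKM (log2 change -0.98, adjusted p 0.000199, under 2-fold). NECTIN2, a nectin of adherens junctions, fell by 1.23 on the log2 scale, with means of 180 and 76.8 FPKM (adjusted p 7.76e-07). Among junction genes of at least 10 FPKM in CD31+CD34+ cells, the lowest share was that of CLDN6, an embryonic claudin that fell (20.3%, from 26.7 to 5.44 FPKM), and the highest that of GJA4, the connexin 37 gene (147%, 23.0 and 33.9 FPKM, under 2-fold). The only junction gene of the list that rose was CLDN10 (3.61 to 11.7 FPKM), which is named after its values were seen.

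Endothelial surface receptors had the lowest median share of the 5 lists, 42.2%. Of 29 tested, 24 rose and 0 fell on the way to CD31+CD34+ cells, and 0 rose and 16 fell on the way to CD43+ cells. KDR, the main VEGF receptor, averaged 277 FPKM in CD31+CD34+ and 110 FPKM in CD43+ cells and fell by 1.31 on the log2 scale (adjusted p 0.000124). NRP2, a neuropilin co-receptor, fell by 2.94 (149 to 18.3 FPKM, adjusted p 8.42e-09). APLNR, the apelin receptor that marked the day 2 sort, fell from 403 to 23.7 FPKM and kept 5.88%. STAB1, a scavenger receptor, was at 45.9 and 66.9 FPKM, 146% of its former level, with a change under 2-fold. CD34, used in the sort of HEPs, fell from a mean of 47.7 FPKM to 22.2 FPKM.

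Leukocyte adhesion receptors, the class to which ICAM2 belongs, were the list with a median share above 100% (128% over 7 genes). Of 8 tested, 3 rose (SELP, ICAM4 and ICAM5, named after their values were seen) and 2 fell at the step to CD43+ cells. SELP, the P-selectin of endothelial storage granules and platelets, went from 1.88 to 17.0 FPKM, and ICAM4, an adhesion molecule of red cells, from 3.88 to 48.7 FPKM. SELE, the E-selectin of activated endothelium, fell from 12.6 to 1.09 FPKM and kept 8.62%. CD44, the hyaluronan receptor (39.7 and 58.6 FPKM), was under 2-fold, and ICAM3, which kept 128%, had an adjusted p of 0.174. VCAM1 and MADCAM1 were too low to be tested.

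Genes of caveolae and nitric oxide, the context of PLVAP and NOS3, were split: between CD31+CD34+ and CD43+ cells, 3 of 15 tested rose and 3 fell, with a median share of 60.4%. ASS1, which recycles the substrate of nitric oxide synthases, fell from 13.3 to 1.97 FPKM and kept 14.8%, close in size to the 15.8% of NOS3. Unlike NOS3, which rose at the step before, ASS1 had already fallen there, from 63.8 FPKM in APLNR+ cells. NOSIP, a protein that binds NOS3, was at 102 and 103 FPKM (101%), DDAH2, which degrades inhibitors of nitric oxide synthases, at 77.1 and 64.4 FPKM and HSP90AA1 at 55.3 and 65.6 FPKM, none of them called. CAVIN1, a coat protein of caveolae, was at 111 and 76.4 FPKM (log2 change -0.54, adjusted p 0.000295, under 2-fold). The raised genes were CAVIN2, NOSTRIN and GUCY1B3, named after their values were seen, and CAVIN2 rose from 1.03 to 19.6 FPKM. CAV1, the main caveolin, stayed at 0.681 and 0.933 FPKM.

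Storage granule and coagulation genes, the context of VWF, gave 2 raised and 4 lowered of 12 tested and a median share of 44.5%. CD63, a membrane protein of endothelial storage granules and other vesicles, was at 677 and 610 FPKM (90.1%) and was not called, as VWF was not. MMRN2, an endothelial matrix protein, fell from 69.3 to 27.5 FPKM and PLAT, the tissue plasminogen activator, from 12.8 to 3.79 FPKM. TFPI, which inhibits tissue factor, was at 30.5 and 17.9 FPKM (log2 change -0.74, adjusted p 0.00159, under 2-fold). The raised genes were MMRN1, the platelet multimerin (0.642 to 14.4 FPKM), and SYTL4, a granule docking protein (3.39 to 15.2 FPKM), both named after their values were seen.

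**Figure D4:**
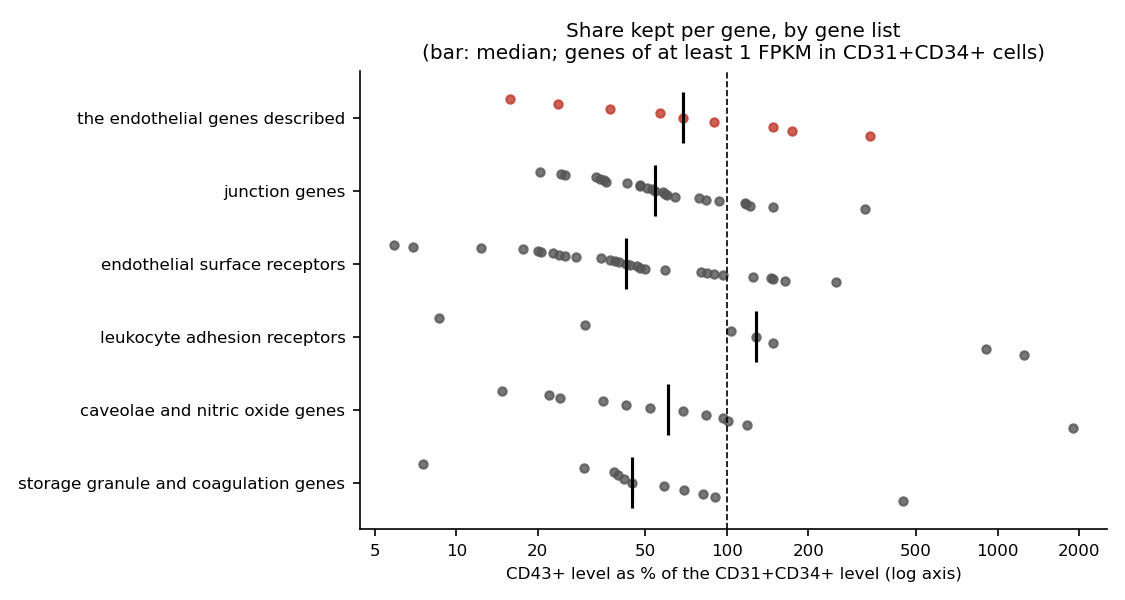
Share of the CD31+CD34+ level kept in CD43+ cells (percent, log axis) for every tested gene of at least 1 FPKM in CD31+CD34+ cells, in the endothelial genes described (red, 9 of the 10, EMCN being under 1 FPKM) and in 5 lists of related genes (grey). Bars are medians, from 42.2% for endothelial surface receptors to 128% for leukocyte adhesion receptors, and the dashed line marks 100%.

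Over the 12 libraries, the mean profile of the 10 genes was most like that of FLI1 (Pearson r of 0.999 on standardized log2(FPKM + 1) values), followed by ART4, LPAR5, TAL1, AFAP1L1, CPED1, SAMSN1 and IL16. FLI1, an ETS transcription factor, averaged 103 FPKM in CD31+CD34+ and 84.0 FPKM in CD43+ cells, and TAL1, a transcription factor of blood and endothelium, 82.9 and 65.0 FPKM. These correlations rest on 6 low and 6 high libraries, and 632 of 14830 other tested genes had r above 0.95. For single genes, the closest abundant gene was LMO2 for PECAM1, STAB1 for ICAM2, ENG for NOS3, HHEX for VWF, TMEM204 for PLVAP, FLI1 for ESAM, EXT2 for ROBO4, PPP1CA for EGFL7, KCNE3 for CLDN5 and TREML2 for EMCN, with r from 0.988 for CLDN5 to 0.999 for ICAM2. LMO2, a transcription cofactor of blood and endothelium, averaged 79.2 and 128 FPKM in CD31+CD34+ and CD43+ cells, and ENG, the TGF-beta co-receptor endoglin, 11.9 and 2.39 FPKM.

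Among the 10 genes, 2 pairs are neighbours in GENCODE release 29. ICAM2 and PECAM1 lie on chromosome 17, on the same strand, with 2 protein-coding genes (ERN1 and TEX2) between them, and kept 148% and 174%. ESAM and ROBO4 lie on chromosome 11, on the same strand, with MSANTD2 and ROBO3 between them, and kept 68.8% and 56.8%. The other 6 genes lie on chromosomes of their own. The shares of the genes between the pairs are not given here, and a link between position and share was not tested.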

How the data were processed

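RNA-seq libraries from 12 samples (4 populations, 3 libraries each) were used, with groups and replicate numbers from the sample titles. The authors deposited 1 table of FPKM values per gene symbol, which are not counts, so no count model was run. The submitters' processing notes name BWA, Bowtie and RSEM and the genome build hg19, without a role or version, and the annotation is not given in the sources used here. Per the labels, libraries were made with an Illumina TruSeq kit from total RNA; strand use is not stated. Of 58366 lines, 1 held text and was left out; symbols on several lines (345) were represented by the line with the highest mean, and none of the 10 genes was among them.

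Values were transformed as log2(FPKM + 1), and 14840 genes of at least 1 FPKM in at least 3 libraries were fitted with limma 3.58.1 (R 4.3.3; lmFit, contrasts.fit and eBayes with trend) in 1 model of the 4 populations, with Benjamini-Hochberg adjustment over all genes. Adjusted p values are two-sided and from this model. The fit was tested on simulated data, where it called nearly all genes changed by a known amount. Those changes were well above 2-fold and in genes that were not low. The simulation does not cover low genes or changes near 2-fold. Shares are ratios of mean FPKM with standard errors by the delta method. Named genes were the 10 genes, the sorting markers, in each list the 3 most abundant genes in CD31+CD34+ cells and, of those at 10 FPKM or more, the lowest and highest share, marker genes, and the genes most alike over the 12 libraries. The members and lists were chosen with earlier results of these data known. Same-numbered libraries of CD31+CD34+ and CD43+ cells deviated together from their population means (r 0.192 to 0.392 in the 3 pairs), so the numbers were taken to pair these 2 populations, from the data and not from the labels. In the other 3 comparisons at least 1 of the 3 pairs had an r of 0.1 or less. Same-numbered libraries of H1 and CD43+ cells, which were not compared, also deviated together (r 0.174 to 0.386). Between CD31+CD34+ and CD43+ libraries of different number, the highest r was 0.161. Sequences are from RefSeq, and gene neighbours and transcript sequences from GENCODE release 29. Alternatives were other pseudocounts, filters, scalings, minimum changes, variance priors, the 2 populations alone, a replicate block, leaving out libraries and, added after the data were seen, replicate 1 alone and ratios of same-numbered libraries. Python 3.11.15 with numpy 2.4.6, pandas 2.3.3 and matplotlib 3.10.9 was used.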

Additional observations from a re-analysis of the deposited data

How the results depend on the processing

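No result that was run under the alternatives reversed its direction. For the step from H1 to APLNR+ cells only the counts were run, not the changes of single genes. Of the 10 genes, the number called from H1 to APLNR+ cells was 2 with a pseudocount of 0.1 (24.5% of all tested genes) and 3 with no minimum change (57.9%), in place of 0. From CD31+CD34+ to CD43+ cells it was 3 with a mean of at least 5 FPKM, where 7 of the genes could be tested (15.2% of all), 9 with no minimum change (53.6%) and 2 with a minimum of 4-fold (3.06%), in place of 5. With the replicate block, the numbers called were 0, 9, 5 and 10 for the 4 comparisons, as without it, and it changed no other call; the median share over same-numbered libraries was 79.2%. Leaving out each library in turn left the numbers from CD31+CD34+ to CD43+ cells at 5 and from APLNR+ to CD31+CD34+ cells at 8 to 9, since CLDN5 fell under 2-fold without APLNR+ replicate 2 or CD31+CD34+ replicate 1. Among single genes and one-directional counts, 6 values newly passed their threshold, 7 lost it (2 more with a library left out) and 10 moved, mostly under other minimum changes or the pseudocount of 0.1. The median share kept ranged from 74.0% to 85.3% over the left-out libraries. In replicate 1 alone, the shallowest library of each population, EMCN kept 556% and VWF 77.6%, against 1346% and 96.0% in replicates 2 and 3 alone, a setting chosen after seeing the data. Low levels (EMCN, CLDN5, ROBO4 and all but EGFL7 and NOS3 in H1 and APLNR+ cells) are the least precise, and 3 libraries per population limit every comparison.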
